A study of Mus musculus with 4 samples.

Results

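The nuclear genes of the mitochondrial respiratory chain were examined in mouse regulatory T cells. They were chosen by name, as protein-coding nuclear genes whose GENCODE M21 symbol starts with Nduf, Uqcr, Atp5, Cox4i, Cox5, Cox6, Cox7 or Cox8, together with Sdha, Sdhb, Sdhc, Sdhd and Cyc1. The rule uses names only and no measured value. It gave 94 genes of the 50600 in the files, of which 36 encode subunits of complex I, 4 of complex II, 9 of complex III, 20 of complex IV and 16 of complex V, and 9 were kept apart as assembly factors. Ndufa4 and its paralog Ndufa4l2 were counted with complex IV, to which the NDUFA4 protein belongs, and Atp5s, which encodes no structural subunit of the ATP synthase, with the assembly factors. A further 11 genes with these prefixes were processed pseudogenes and were not counted as members; the highest of them, Uqcrh-ps2, averaged 11.1 TPM.

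The series holds 1 group, regulatory T cells of the strain C57BL/6NJ, sequenced as 4 libraries that the labels number as biological replicates 1 to 4. No genetic change and no treatment is labelled; the sex is recorded as not collected and the age as unknown, and a differentiation protocol for CD4+ T cells is linked to the samples. Inside the file headers, the sample names include activated, sorted and 72h. All 4 libraries share 1 donor record and nothing says that they came from separate animals or cultures, so the p-values below measure the spread between samples only, and this spread may be technical. Total RNA sequencing is the assay title, but the protocol linked for the libraries has poly(A)+ RNA in its name.

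The libraries held 46044354, 72147632, 94983494 and 32648138 counted read pairs. Levels are given in TPM, the counts scaled here for the exon length of each gene and the total of its library, and a gene was called expressed when no library had it under 1 TPM. The T cell and regulatory T cell markers were all expressed, with Foxp3 at 463 ± 25.4, Il2ra at 1769 ± 120 and Cd4 at 557 ± 21.8 TPM (SD, n = 4). All markers of CD8, B, myeloid, neutrophil, erythroid, striated muscle, testis germ cell and brown fat origin averaged under 1 TPM, led by the muscle gene Ckm at 0.458 TPM. No pair of libraries agreed within counting noise (chi-square per gene of 11.8 or more), which shows only that none is a copy of another and not that the samples are separate.

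The respiratory chain passes electrons from NADH (complex I) and succinate (complex II) through ubiquinone to complex III, and from there through cytochrome c to complex IV, which reduces oxygen. Complexes I, III and IV pump protons across the inner mitochondrial membrane, and complex V, the ATP synthase, uses the return flow to make ATP. Most subunits are encoded in the nucleus and a few in mitochondrial DNA; several nuclear subunits exist as isoforms that are restricted to muscle, lung or testis in mammals. Regulatory T cells are known to depend on respiration for their suppressive function.

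The promoters of these genes are classical sites of the transcription factors NRF1, GABPA (an ETS factor), ERRA and YY1, so their sequences are shown first for 6 members that differ in complex and level. Each line gives 250 bases before and 50 bases after the transcript start, read 5′ to 3′ on the strand of the gene, from RefSeq on GRCm38.p6, the same assembly as mm10. Capitals mark matches on either strand to GCGCA and GCGC with any base between them (NRF1), CCGGAAG (GABPA and other ETS factors), TCAAGGTCA (ERRA) or AAGATGGC (YY1).
Sdhd, chr9:50603800-50604099, minus strand: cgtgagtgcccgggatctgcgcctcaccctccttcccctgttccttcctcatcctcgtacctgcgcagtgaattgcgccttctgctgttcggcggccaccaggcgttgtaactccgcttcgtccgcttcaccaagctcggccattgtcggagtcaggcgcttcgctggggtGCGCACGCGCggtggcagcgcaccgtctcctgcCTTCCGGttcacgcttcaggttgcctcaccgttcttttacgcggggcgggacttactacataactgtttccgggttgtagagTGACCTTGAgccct
Ndufs6, chr13:73328433-73328732, minus strand: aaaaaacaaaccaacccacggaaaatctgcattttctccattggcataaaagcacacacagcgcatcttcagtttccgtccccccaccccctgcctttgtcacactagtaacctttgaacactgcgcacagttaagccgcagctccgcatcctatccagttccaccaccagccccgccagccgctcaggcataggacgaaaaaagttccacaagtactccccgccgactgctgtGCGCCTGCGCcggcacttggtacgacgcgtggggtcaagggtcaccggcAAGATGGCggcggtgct
Cox6a1, chr5:115348909-115349208, minus strand: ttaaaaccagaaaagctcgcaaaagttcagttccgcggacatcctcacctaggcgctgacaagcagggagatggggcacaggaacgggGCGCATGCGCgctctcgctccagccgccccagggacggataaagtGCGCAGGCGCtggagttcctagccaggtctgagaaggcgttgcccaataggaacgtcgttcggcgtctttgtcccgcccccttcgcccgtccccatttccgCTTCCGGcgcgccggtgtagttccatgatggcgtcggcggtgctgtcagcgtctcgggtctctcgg
Atp5g3, chr2:73911277-73911576, minus strand: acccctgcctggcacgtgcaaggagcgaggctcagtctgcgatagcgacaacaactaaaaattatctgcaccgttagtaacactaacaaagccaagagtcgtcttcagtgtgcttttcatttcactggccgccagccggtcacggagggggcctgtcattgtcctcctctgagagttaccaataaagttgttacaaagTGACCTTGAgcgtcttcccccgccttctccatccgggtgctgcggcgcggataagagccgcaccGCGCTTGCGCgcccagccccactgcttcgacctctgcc
Cox8a, chr19:7217567-7217866, minus strand: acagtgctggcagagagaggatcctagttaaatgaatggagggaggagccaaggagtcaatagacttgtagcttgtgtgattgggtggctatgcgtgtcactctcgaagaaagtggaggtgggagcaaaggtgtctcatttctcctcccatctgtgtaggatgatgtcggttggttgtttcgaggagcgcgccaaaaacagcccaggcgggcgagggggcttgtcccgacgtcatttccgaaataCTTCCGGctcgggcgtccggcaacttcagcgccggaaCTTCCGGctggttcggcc
Cox8b, chr7:140900397-140900696, minus strand: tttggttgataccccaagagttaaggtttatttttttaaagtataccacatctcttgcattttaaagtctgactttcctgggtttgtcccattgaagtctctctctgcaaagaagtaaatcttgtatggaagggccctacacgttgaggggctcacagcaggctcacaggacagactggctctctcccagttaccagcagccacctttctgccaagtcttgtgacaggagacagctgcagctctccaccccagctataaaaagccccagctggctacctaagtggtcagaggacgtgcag
Sdhd, which encodes a membrane anchor of complex II, held 3 kinds of match, with the NRF1 letters starting 79 bases before the transcript start, the ETS letters 46 bases before it and the ERRA letters 37 bases into the transcript. Ndufs6 held the NRF1 letters 16 bases before the start and the YY1 letters at base 34 of the transcript. The window of Cox6a1 held the NRF1 letters at 2 places and the ETS letters 16 bases before the start. Atp5g3 held the ERRA letters 52 bases before the start and the NRF1 letters at base 13 of the transcript. Cox8a, the highest of these members at 1425 TPM, held the ETS letters at 2 places, and Cox8b, which had no count in any library, held none of the 4 motifs. The windows shown do not tell how motifs relate to level. Atp5b, the highest member of the chain at 1494 TPM, also held none, whereas Ndufb4 at 10.4 TPM held the NRF1 letters.

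A promoter window was matched by symbol for 74 of the 94 members, and 40 of the 74 (54.1%) held at least 1 of the 4 motifs. Among all genes with a window the share was 16.8%, and among the other expressed genes 35.7%. The NRF1 letters stood in 19 of 74 members (25.7%), against 12.6% of the other expressed genes and 5.19% of all genes with a window. The YY1 letters stood in 10 of 74 (13.5%), against 5.72% of the other expressed genes and 3.19% of all genes with a window. In contrast, the ETS letters, at 18 of 74 (24.3%), were close to the share of 22.2% in the other expressed genes, with 9.93% of all genes with a window. Matches to ERRA were found in 2 members (2.70%), Sdhd and Atp5g3, against 0.353% of the other expressed genes and 0.466% of all genes with a window.

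The place of the YY1 letters was shared by most members that held them. In 9 of 10 such members they lay on the strand of the gene and after the transcript start, against 31.5% of the 903 windows with a match among all promoters. That share was not taken for the other expressed genes alone. The letters contain ATG, and whether a match lies at a start of translation was not examined. Of these 10 members, 7 encode complex I subunits (Ndufa3, Ndufa9, Ndufb8, Ndufc1, Ndufs4, Ndufs6 and Ndufs7), 2 encode complex V subunits (Atp5j and Atp5j2) and 1 encodes the assembly factor Ndufaf8. In Atp5j alone the match lay before the start, at 88 bases. The NRF1 letters were found in 7 of 32 complex I genes, 2 of 3 complex II genes, 1 of 5 complex III genes, 1 of 14 complex IV genes and 6 of 13 complex V genes with a window. These matches describe letters in a window and say nothing of binding.

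**Figure D1:**
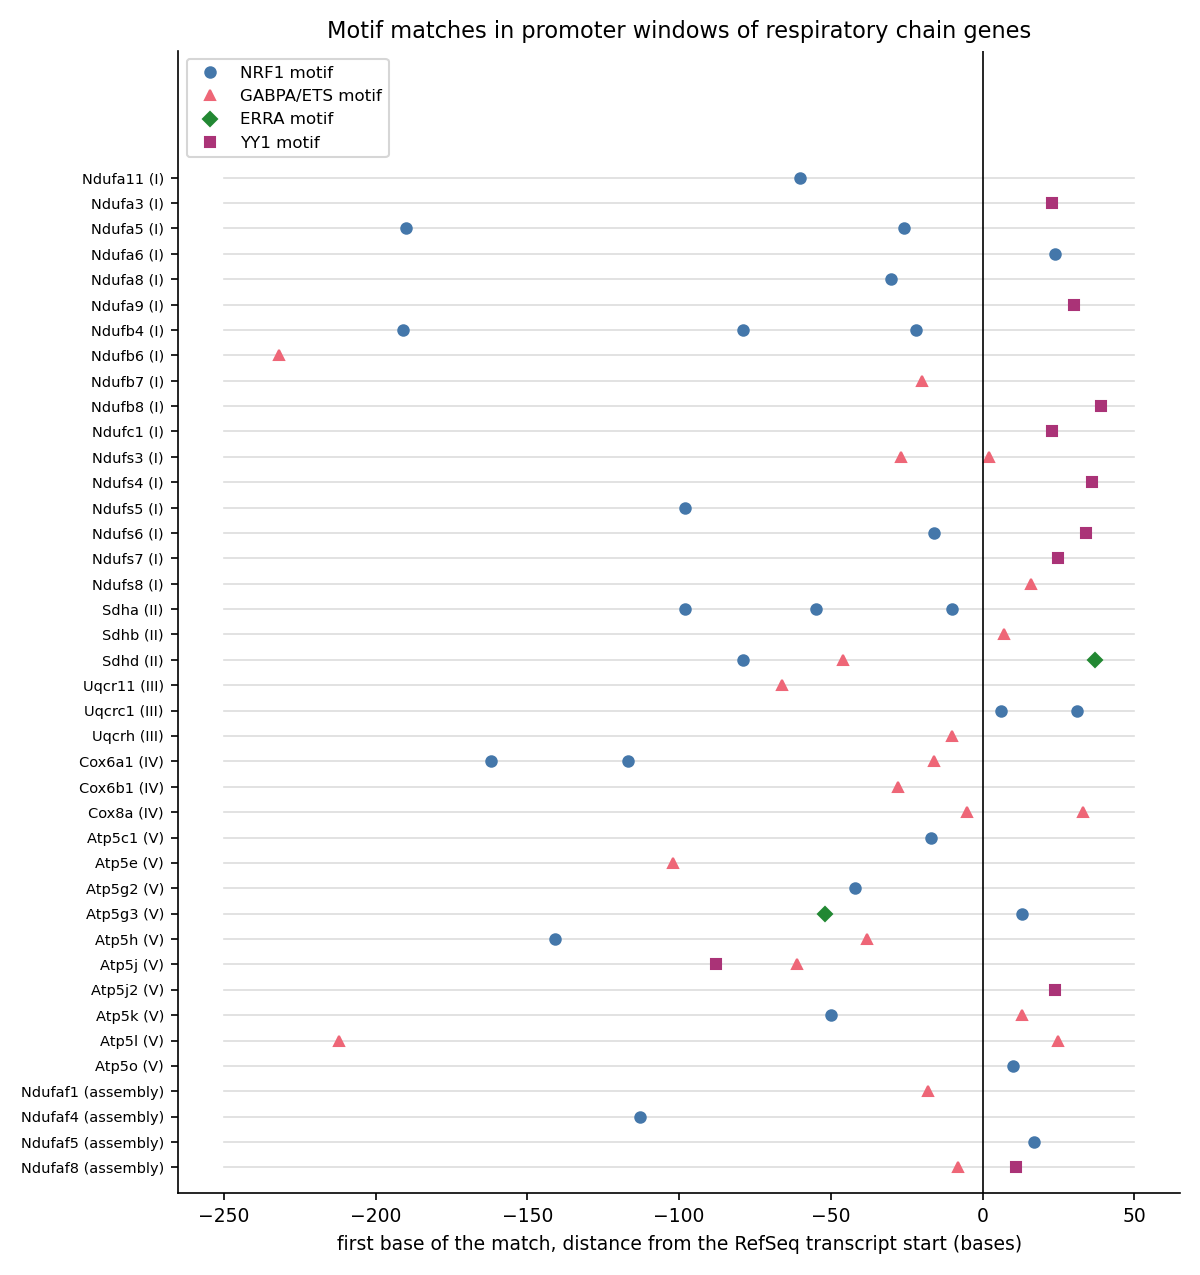
Place of each motif match in the promoter windows of the 40 members with a match, as the distance in bases of its first base from the RefSeq transcript start (vertical line). Rows are genes, ordered by complex, and symbols tell the 4 motifs apart. The YY1 letters (squares) stand after the start in 9 of 10 members and the NRF1 letters (circles) on both sides of it.

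The respiratory chain genes were among the more abundant nuclear genes of these cells. In all, 90 of the 94 were expressed, 60 averaged over 100 TPM, and together they took 1.20, 1.13, 1.20 and 1.21% of the counts of replicates 1 to 4. Among the 10672 expressed protein-coding nuclear genes, whose median mean level was 30.9 TPM, 78 of the 90 expressed members stood above the 50th percentile, 65 above the 75th and 47 above the 90th. The 4 members that were not expressed, Cox7b2, Cox8b, Cox8c and Ndufa4l2, are all isoforms of complex IV subunits. None of the 9 assembly factors among the members reached a mean of 100 TPM, whereas 60 of the 85 structural subunits exceeded it.

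**Figure D2:**
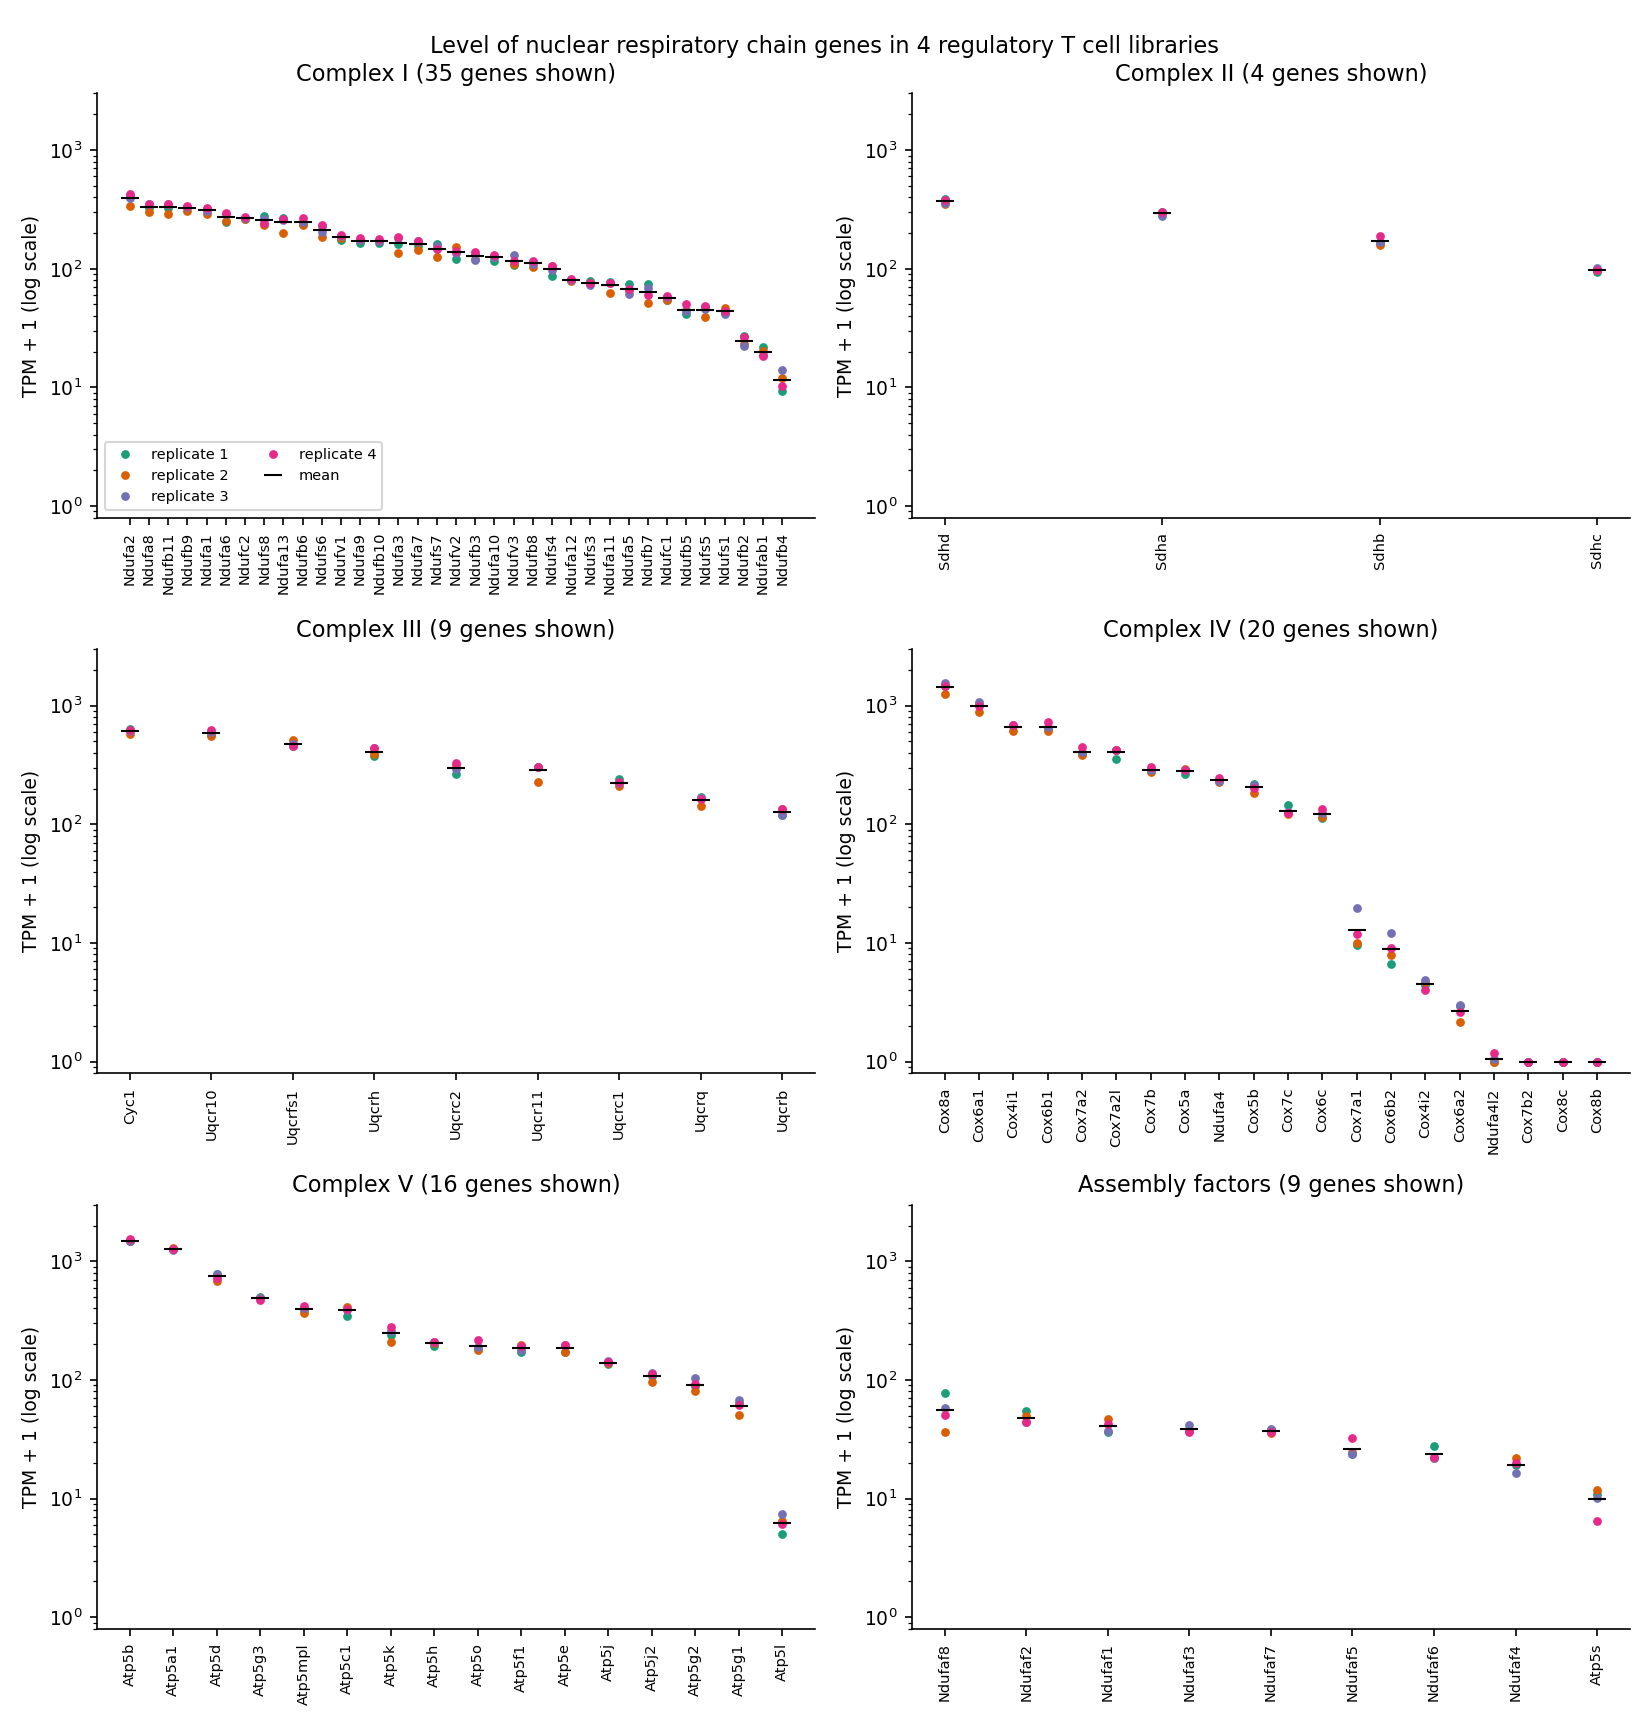
Level of 93 of the 94 members in each of the 4 libraries (points, coloured by replicate) with the mean over libraries (bar), as TPM + 1 on a log axis, in 1 panel for each complex and for the assembly factors. Within a gene the 4 points lie close together compared with the range between genes, and complex IV has a separate low group that starts with Cox7a1 at a mean of 11.8 TPM.

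Complex I, NADH dehydrogenase, had all 36 nuclear subunits examined here expressed, with a summed level of 5815 ± 284 TPM (SD, n = 4). The median over the subunit means was 142 TPM. The 7 nuclear core subunits, which carry the flavin and the iron-sulfur clusters or shape the ubiquinone site, had a median of 146 TPM, with Ndufs1 the lowest at 42.7 TPM. The 29 supernumerary subunits examined, which surround and stabilise the core, spread further, between 10.4 TPM (Ndufb4) and 395 TPM (Ndufa2), with a median of 126 TPM. Core and supernumerary subunits thus had like medians.

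The highest complex I gene was Ndufa2, a supernumerary subunit of the peripheral arm, at 417, 337, 397 and 429 TPM in replicates 1 to 4. Its lowest value was that of replicate 2. The lowest complex I gene was Ndufb4, a subunit of the membrane arm, at 8.32, 10.98, 13.1 and 9.36 TPM. Replicate 3 was highest for Ndufb4, and its values lay below those of every other complex I subunit in each library. The X-linked Ndufa1, a small membrane-arm subunit needed for assembly, was at 318, 288, 308 and 324 TPM. Ndufb11, the other X-linked complex I gene and also a membrane-arm subunit, was at 321, 290.3, 349 and 351 TPM. Both X-linked genes were lowest in replicate 2 and ranked among the upper members of the complex.

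Several complex I subunits were set apart by a single low library. Ndufa13, a supernumerary subunit also known as GRIM-19, was at 267, 199, 256 and 264 TPM. Ndufa11, which sits in the membrane arm near complex III in the respirasome, was at 76.0, 61.8, 75.4 and 74.3 TPM. Ndufb9 was at 330.0, 307, 331 and 334 TPM. In all 3 genes replicate 2 was low and the other libraries lay close together. Ndufa3 was at 159.8, 135, 182 and 184 TPM and Ndufb7 at 73.6, 50.5, 67.6 and 59.0 TPM, again lowest in replicate 2.

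Complex II, succinate dehydrogenase, has 4 subunits, all nuclear, and summed to 929 ± 29.5 TPM. Sdha, the flavoprotein that oxidises succinate in the citric acid cycle, was at 300.2, 296, 279 and 299 TPM. Sdhb, the iron-sulfur subunit, was at 165, 159, 166 and 187 TPM, highest in replicate 4. The membrane anchors differed most: Sdhd was at 386, 352, 359.9 and 381 TPM, and Sdhc at 92.0, 96.8, 100.2 and 96.7 TPM. No value of one anchor overlapped that of the other, and the ratio of Sdhd to Sdhc was 3.84 ± 0.28 (SD, n = 4), or 3.75 ± 0.28 with principal transcript lengths.

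Complex III, the cytochrome bc1 complex, had 9 nuclear subunits, all above 100 TPM in the mean, with a median of 299.9 TPM. That was the highest median of the 5 complexes by merged exon length, whereas by principal transcript length complex V led with 343 TPM, against 328 TPM for complex III. Its sum was 3177 ± 106 TPM. Cyc1, the haem-bearing cytochrome c1, led with 638, 572, 609 and 623 TPM, lowest in replicate 2. Uqcrfs1, the Rieske iron-sulfur protein and the other nuclear electron-carrying subunit, averaged 473 ± 26.6 TPM. Uqcr10 and Uqcrh, small supernumerary subunits, averaged 589.8 ± 31.8 and 409.5 ± 31.9 TPM. Uqcrb, known as a ubiquinone-binding subunit, was lowest with 119, 132, 118 and 134 TPM. Uqcr11 was at 306, 226, 305 and 302 TPM, so that replicate 2 stood alone below 3 like values.

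Complex IV, cytochrome c oxidase, takes its catalytic core from mitochondrial DNA, and the 20 nuclear genes examined encode supernumerary subunits and their isoforms. The 16 expressed genes ranged between 1.67 TPM (Cox6a2) and 1425 TPM (Cox8a), and the complex summed to 5841 ± 333 TPM. Cox8a, the ubiquitous isoform of the smallest subunit, was at 1454, 1241, 1553 and 1450.0 TPM. Cox6a1, the ubiquitous isoform of a regulatory subunit, was at 1023, 885, 1078 and 996 TPM. Both were lowest in replicate 2 and highest in replicate 3. The X-linked Cox7b was at 280.0, 275, 288 and 305 TPM, and Cox7c at 145, 122, 126 and 124 TPM, highest in replicate 1.

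The isoforms that are ubiquitous in mammals exceeded their restricted paralogs in every library. Differences below are on the log2(TPM + 1) scale, as mean ± SD over 4 libraries, and p-values come from a two-sided exact permutation of the signs over libraries, adjusted by Benjamini-Hochberg over 15 pairs. The smallest p of that test with 4 libraries is 0.13, so no pair could pass a threshold of 0.05. For 14 of the 15 pairs all 4 differences had 1 sign, with p = 0.13 and an adjusted p of 0.134 in the exact test.

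Cox4i1, the ubiquitous form of the subunit that binds ATP as a regulator of the enzyme, was at 679, 611, 689.5 and 684 TPM. Cox4i2, the form known from lung and from hypoxic cells, was at 3.42, 3.71, 3.87 and 3.03 TPM. Cox4i1 exceeded Cox4i2 by 7.21 ± 0.17, and the ratio of TPM was 192 ± 26.6, or 361 with principal transcript lengths. Cox6a1, given above, exceeded Cox6a2, its heart and skeletal muscle form, by 8.55 ± 0.11, with Cox6a2 at 1.93, 1.14, 1.99 and 1.61 TPM. The restricted isoforms were thus detected in every library, far below their ubiquitous partners, with a ratio of 616 ± 113 for Cox6a1 over Cox6a2. In bulk libraries a low level in all cells and a higher level in few cells cannot be told apart.

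Cox6b1, a ubiquitous subunit on the face that docks cytochrome c, was at 641, 605, 663 and 734 TPM, against 5.67, 6.89, 11.1 and 7.99 TPM for Cox6b2, its testis isoform. The difference was 6.25 ± 0.34, or 5.56 ± 0.35 with principal transcript lengths. Cox7a2, the ubiquitous form of subunit 7A, was at 389.6, 385, 408 and 443 TPM, and Cox7a1, its heart and muscle form, at 8.65, 8.97, 18.7 and 10.8 TPM. The difference was 5.05 ± 0.46, the smallest among these pairs of a ubiquitous and a restricted isoform. Cox7a1 was highest in replicate 3. The 3 striated muscle markers together were at 0.827, 0.548, 0.616 and 0.201 TPM, with no count of Myh6 in any library, and their part in the level of Cox7a1 was not tested.

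Cox7a2l, also called SCAF1, is a relative of subunit 7A that is known for linking complexes III and IV into a supercomplex. Whether the allele of the strain used here encodes a protein with this function was not tested, and an RNA level does not show it. Cox7a2l was at 352, 423, 426 and 419.6 TPM. Cox7a2 was higher than Cox7a2l in 2 of 4 libraries, and the difference of 0.0064 ± 0.13 (exact permutation p = 0.875, adjusted p = 0.875) was smaller than its spread between libraries. It depended on the length used: with principal transcript lengths it was 0.43 ± 0.13 (exact permutation p = 0.13), and in CPM it was −0.27 ± 0.13.

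The testis isoforms Cox7b2 and Cox8c and the heart and muscle isoform Cox8b had no count in any library. Taking 3 counts per library as the floor, Cox7b was at least 555-fold higher than Cox7b2, and Cox8a at least 1748-fold higher than Cox8b and at least 2312-fold higher than Cox8c. Ndufa4 was at 236, 225, 229.8 and 246 TPM. Its hypoxia-inducible paralog Ndufa4l2 had 0, 0, 2 and 2 counts, and the pooled ratio of length-adjusted levels was 4816, with a 95% counting interval of 1881 to 17675. Intervals and floors cover counting error only.

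Among the other complex IV subunits, Cox5a, which binds thyroid hormone T2 in cattle, was at 263, 290.3, 287 and 287 TPM, and Cox5b, a zinc-binding subunit, at 219, 184, 215 and 202 TPM. Cox5a exceeded Cox5b by 0.46 ± 0.16 in 4 of 4 libraries (exact permutation p = 0.13, adjusted p = 0.134), and by 1.32 ± 0.16 with principal transcript lengths. Cox6c was at 112, 115, 124 and 133 TPM, and its processed pseudogene Cox6c2 averaged 1.56 TPM.

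**Figure D3:**
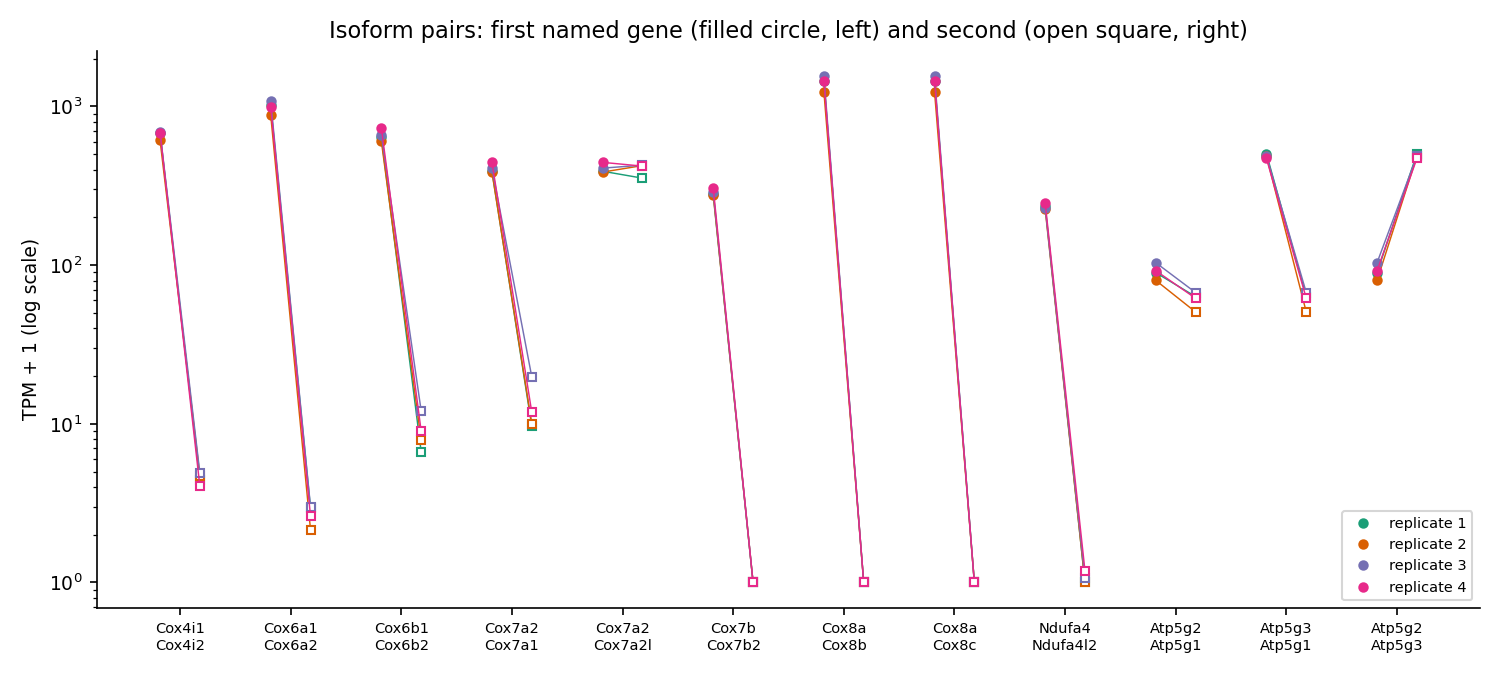
Level of the first named gene (filled circle, left) and of the second (open square, right) of 12 isoform pairs, with a line for each library, as TPM + 1 on a log axis. All lines of the complex IV pairs with a tissue-restricted second gene fall steeply, the 4 lines of Cox7a2 and Cox7a2l cross, and the lines of Atp5g2 and Atp5g3 rise.

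Complex V, the ATP synthase, had 16 genes, all expressed, with the highest sum of the 5 complexes at 6181 ± 120 TPM. The F1 part that makes ATP had 5 genes with a median of 744 TPM, the stalk genes a median of 188 TPM, the other membrane subunits 176 TPM and the c ring genes 90.4 TPM. Atp5b, the catalytic beta subunit, was the highest member of the chain at 1490.2, 1477, 1476 and 1532 TPM. Atp5a1, the alpha subunit, averaged 1274 ± 22.6 TPM, and the rotating gamma subunit, Atp5c1, averaged 384 ± 29.2 TPM. Alpha stood at 3.33 ± 0.24 and beta at 3.91 ± 0.32 times the level of gamma, and with principal transcript lengths the same ratios were 2.59 ± 0.19 and 5.29 ± 0.43 (SD, n = 4).

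The c ring of the proton channel is built from 1 mature protein that 3 genes encode with different targeting sequences. Atp5g3 was at 503, 486, 488 and 469.8 TPM, Atp5g2 at 88.6, 79.1, 103 and 91.2 TPM, and Atp5g1 at 62.3, 49.6, 66.1 and 60.8 TPM. The 3 ranges did not overlap, and Atp5g3 made up 76.5 ± 2.03% of their sum, or 84.5 ± 1.46% with principal transcript lengths. Of the stretches of 50 bases in the Atp5g2 transcript, 87.4% also occur in 2 pseudogenes. For Atp5g1 11.6% occur in other annotated genes, and for Atp5g3 0%. Reads that map to several places were not counted, so the level of Atp5g2 and the share of Atp5g3 are uncertain. The part of this loss was not tested. Atp5g3 exceeded Atp5g1 by 3.01 ± 0.18, and Atp5g2 exceeded Atp5g1 by 0.59 ± 0.07 and lay below Atp5g3, at −2.42 ± 0.16 (log2; for each, exact permutation p = 0.13 and adjusted p = 0.134). The differences from Atp5g1 depended on the length used. With principal transcript lengths Atp5g3 exceeded it by 4.54 ± 0.17 and Atp5g2 by 1.71 ± 0.07, and in CPM, which has no length correction, Atp5g2 minus Atp5g1 was −0.94 ± 0.07.

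Atp5l, subunit g of the membrane part, was the lowest complex V gene at 3.99, 5.47, 6.34 and 5.08 TPM. Its deposited exon length of 6443 bases is that of all annotated exons merged, while the principal transcript has 544 bases, and with that length it averaged 42.9 ± 7.89 TPM. Of its transcript's stretches of 50 bases, 84.8% also occur in other annotated genes, of which 12 of 14 are pseudogenes. The first 60 bases of its reading frame, on chromosome 9 within 44912557 to 44920742 (mm10), occur unchanged in Atp5l2-ps on chromosome 11 and Gm10221 on chromosome 5, with the start codon in capitals.
Atp5l reading frame, first 60 bases: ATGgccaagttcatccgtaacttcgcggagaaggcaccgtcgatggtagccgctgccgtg
Reads that map to several places were not counted by the authors, so the level of Atp5l is uncertain, and the part of this loss in its low value was not tested.

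The choice of length and shared sequence bore on other members too. The merged exon length was over 2 times the principal transcript length in 24 of 94 members and over 3 times in 13, with medians of 1475 and 863 bases. With principal lengths Cox6c stood at 406 TPM in place of 121 TPM, Ndufb7 at 316 in place of 62.7 TPM, Cox5a at 637 in place of 282 TPM and Atp5e, subunit epsilon of F1, at 532 in place of 184 TPM. Across the 90 expressed members the 2 scales had a Spearman correlation of 0.84, over genes that share libraries and counts. Over 20% of the 50-base stretches were shared with other annotated genes in 17 members, and over 50% in Atp5g2 (87.4%), Atp5l (84.8%), Cox7c (53.0%) and Atp5o (50.3%). The gene sharing most was a pseudogene for Atp5g2, Atp5l and Cox7c. It was protein-coding for Ndufa13 (Tssk6), Ndufb6 (Smim27) and Uqcrc2 (Pdzd9), and for Atp5o it was another entry of the same name. Whether such sharing reflects repeated sequence or genes annotated over the same bases was not tested. The low Ndufb4 shared 37.0% and exceeded its pseudogene Ndufb4c with a pooled ratio of 36.5 (95% counting interval 19.2 to 79.8). How far shared sequence moved a level was not tested. The 17 members with over 20% shared had a median of 184.6 TPM, against 169 TPM for the other 73 expressed members. These medians cannot show whether reads were lost, because the 17 mix sharing with pseudogenes and with protein-coding genes. Of those with over 50% shared, Atp5g2 averaged 90.4, Atp5l 5.22, Cox7c 129 and Atp5o 191 TPM.

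**Figure D4:**
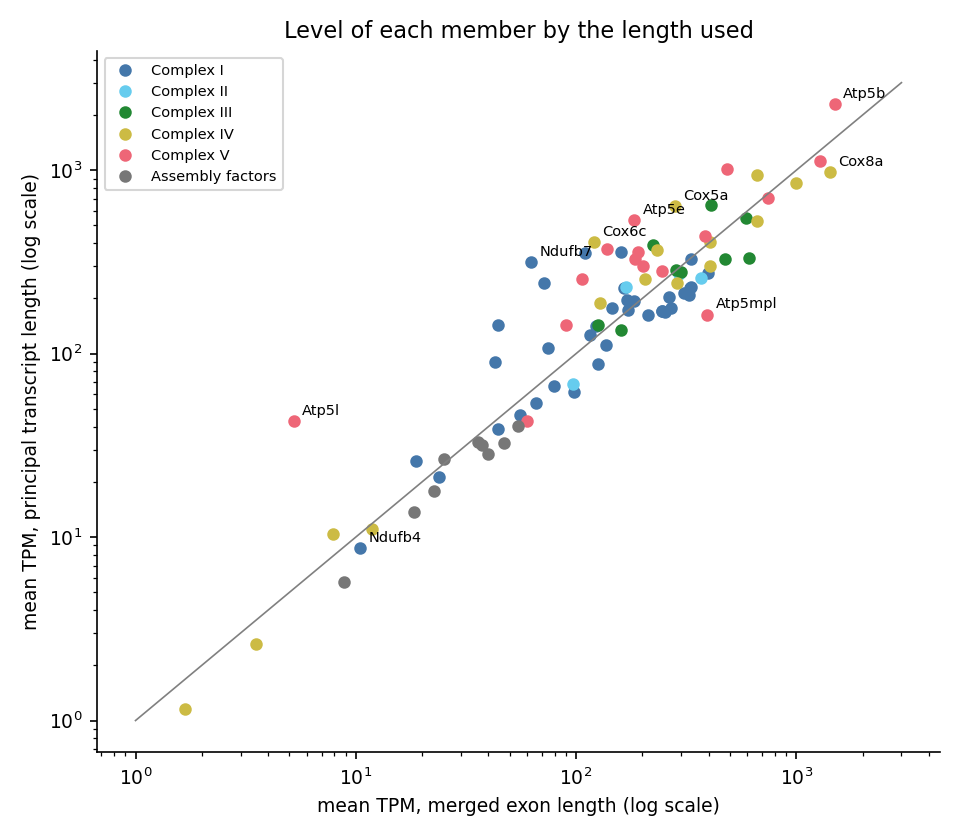
Mean TPM of the 90 expressed members computed with the principal transcript length (vertical, log axis) against mean TPM with the merged exon length of the deposited files (horizontal, log axis), coloured by complex, with the line of equal values. Atp5l lies farthest above the line, at 42.9 against 5.22 TPM, and Ndufb7, Cox6c and Atp5e also lie above it.

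The complexes differed in the median level of their subunits. Relative to complex I, the median log2(TPM + 1) was higher by 0.67 ± 0.07 in complex II, 1.16 ± 0.09 in complex III, 0.22 ± 0.06 in complex IV and 0.50 ± 0.10 in complex V, in 4 of 4 libraries each (SD, n = 4, no test). With principal transcript lengths the differences were 0.52, 0.91, 0.54 and 1.00, so the place of complex V moved with the length used. Complex IV depended on its silent isoforms: over expressed members alone its difference was 0.86, and with the mean in place of the median, which the silent isoforms pull down, it was −1.29. Complex III stood above complex I in every such comparison.

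The 9 assembly factors were the least abundant group, at 289 ± 17.96 TPM in sum and a median of 36.0 TPM. Ndufaf8, which acts in complex I assembly, was the highest and the most variable of them, at 76.4, 35.4, 56.8 and 49.4 TPM in replicates 1 to 4, and lies on chromosome 11 at 120098928 to 120100705 (mm10). Replicate 1 was high and replicate 2 low. Ndufaf5, which modifies a core complex I subunit, was at 22.8, 23.7, 22.5 and 31.3 TPM, high in replicate 4. Ndufaf6 was at 26.9, 20.9, 20.9 and 21.5 TPM, high in replicate 1. Atp5s was lowest of this group, at between 5.50 TPM in replicate 4 and 10.8 TPM in replicate 2, with 10 TPM in replicate 1 and 9.08 TPM in replicate 3.

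Whether a member varied between libraries more than genes of like abundance was tested in edgeR by a goodness-of-fit test on the counts. Across all genes 51 of 13478 were called at an adjusted p under 0.05, or 0.378%. Of the 90 members tested 1 was called, Ndufaf8 (edgeR adjusted p = 0.0272), which is 1.11% of them and rests on a single gene. At an unadjusted p under 0.05 the counts were 7 of 90 members (7.78%), against 5.97% of all genes tested. The call of Ndufaf8 was lost without replicate 1 (edgeR adjusted p = 0.676), without replicate 2 (0.730) and without replicate 3 (0.0507). It was also lost in edgeR without a filter on low counts (adjusted p = 0.173) and with a filter at a mean of 1 CPM (0.0830), and in limma, added after seeing the data (0.558). Ndufb7 followed with an edgeR adjusted p of 0.0731, and all other members had adjusted p-values of 0.295 or more.

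Most members varied little. The coefficient of variation of TPM had a median of 7.63% over the 84 members at 5 CPM or more, against 7.85% over the 9898 genes at that level. The 8 most variable members were Ndufaf8 at 31.4%, Atp5l at 18.7%, Ndufaf5 at 16.7%, Ndufb7 at 16.1%, Ndufa3 at 13.9%, Uqcr11 at 13.7%, Ndufa13 at 12.99% and Ndufaf6 at 12.9%. Atp5b and Atp5a1 varied least among complex V genes, at 1.74 and 1.78%. Cox7a1, below that level of counts, was at 18.7 TPM in replicate 3 against 8.65 to 10.8 TPM in the others. It was not called with the trended dispersion (edgeR adjusted p = 0.99985), but was called with a common dispersion for all genes.

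The low values of replicate 2 were found in each of the 5 complexes. Of the 84 members, 45 (53.6%) were lowest in replicate 2, against 19.8% of all 9898 genes, and 37 (44.0%) were highest in replicate 4, against 21.02%. Replicate 2 was the lowest library for 19 of 35 genes of complex I, 2 of 4 of complex II, 5 of 9 of complex III, 9 of 12 of complex IV and 8 of 16 of complex V, but for 2 of 8 assembly factors. Replicate 4 was the highest library for 21 of 35 genes of complex I, 1 of 4 of complex II, 4 of 9 of complex III, 5 of 12 of complex IV, 5 of 16 of complex V and 1 of 8 assembly factors, and replicate 3 was highest for 7 of the 16 complex V genes. The size was small: the median deviation of the members from their own means was −0.019, −0.076, 0.018 and 0.054 (log2) in replicates 1 to 4, against −0.032, 0.043, −0.018 and 0.0096 for all genes.

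These deviations moved with the GC content and length of the transcripts. In replicate 2 the deviation of the 84 members had a Spearman correlation of −0.58 with GC content, and 9539 other coding genes gave −0.57. In replicate 3 the values were 0.51 for the members and 0.44 for the other coding genes, in replicate 1 they were 0.28 and 0.33, and in replicate 4 they were −0.11 and −0.13. With transcript length the members gave −0.072, 0.45, −0.35 and −0.26 in replicates 1 to 4, and 9542 other coding genes gave −0.068, 0.27, −0.15 and −0.13. Transcripts under 1000 bases with a GC content of 55% or more had a median deviation in replicate 2 of −0.17 over 16 members and −0.12 over 172 other coding genes. By length alone, transcripts under 700 bases gave −0.096 over 29 members and −0.099 over 124 other genes in replicate 2. The values were −0.11 and −0.052 at 700 to 1000 bases, and −0.016 and 0.048 at 1000 bases or more. These correlations run over genes that share a library and are given as descriptions; the part of GC content and length in the low values of replicate 2 was not tested.

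**Figure D5:**
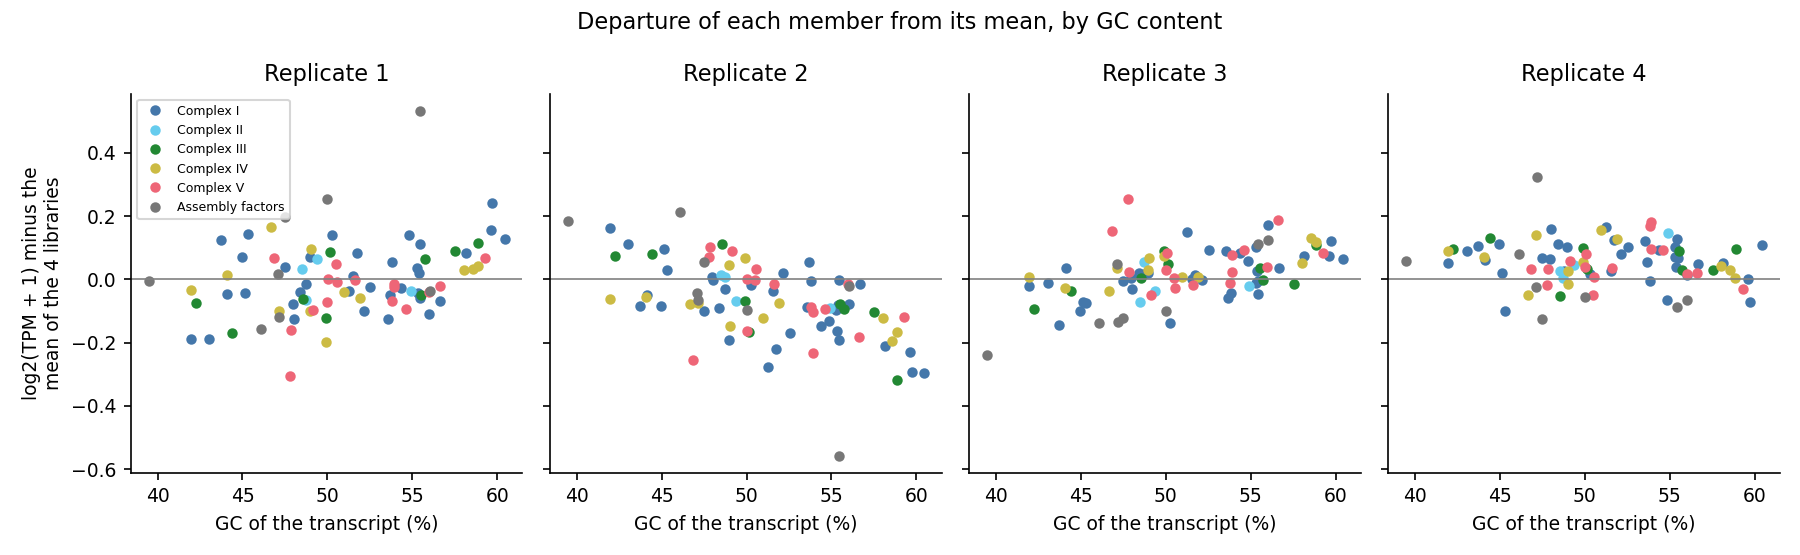
Deviation of log2(TPM + 1) of each of 84 members from its mean over the 4 libraries (vertical) against the GC content of its principal transcript in percent (horizontal), with 1 panel for each library and colours for the complexes. The points slope downward in replicate 2 (Spearman −0.58) and upward in replicate 3 (0.51).

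Other genes of oxidative phosphorylation were expressed at varied levels. Of the 83 genes tested in the lists below (40, 2, 17, 5, 11 and 8, in the order given), 0 were called for variation between libraries in edgeR and 0 in limma, and 3 had an unadjusted edgeR p under 0.05. With 0.378% of all genes called, a count of 0 in so few genes shows nothing about these lists. Of 41 assembly factors outside the prefixes 40 were expressed, with a median of 32.4 TPM, close to the 36.0 TPM of the assembly factors among the members. Their range was wider, with Higd2a at 232, Uqcc2 at 165, Cox14 at 149 and Coa3 at 132 TPM, and no count of Pet117. Atpif1, the inhibitor of ATP hydrolysis, averaged 211 ± 8.80 TPM, and Usmg5, a small membrane subunit of the ATP synthase, 433 ± 19.4 TPM. Both depended on the length used: with principal transcript lengths Atpif1 averaged 392 TPM and Usmg5 37.5 TPM. Of the 18 electron carriers and their reductases 17 were expressed: somatic cytochrome c, Cycs, averaged 44.9 ± 2.33 TPM, and the testis form, Cyct, had no count. Of the 8 exchange and leak genes 5 were expressed. The ADP/ATP carrier Slc25a5 was at 1464 ± 38.6 TPM, the phosphate carrier Slc25a3 at 394 ± 7.08 TPM and Ucp2 at 508 ± 12.7 TPM, and the brown fat gene Ucp1 had no count. With principal transcript lengths Slc25a5, Slc25a3 and Ucp2 averaged 1350, 943 and 619 TPM. Nnt, the proton-driven transhydrogenase that carries a deletion in the substrain C57BL/6J, averaged 18.5 ± 2.10 TPM in these cells, which are labelled C57BL/6NJ.

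Of the 12 transcription regulators of respiratory genes 11 were expressed. Yy1 averaged 97.9 ± 10.4, the coactivator Pprc1 76.8 ± 3.84, Esrra 49.8 ± 7.65, the mitochondrial transcription factor Tfam 39.6 ± 2.79, Gabpa 37.8 ± 4.60 and Nrf1 28.2 ± 1.63 TPM. Their order depended on the length used: with principal transcript lengths Nrf1 averaged 107 TPM and Yy1 31.9 TPM. Among the PGC-1 coactivators Ppargc1b stood at 4.33 ± 0.587 TPM, and Ppargc1a, known from brown fat and muscle, averaged 0.0151 TPM with counts in replicate 4 only. Of the 13 subunits encoded in mitochondrial DNA 8 were expressed, and these 13 genes summed to 22658, 22177, 22161 and 24280 TPM in replicates 1 to 4, led by mt-Co1 at 10126 ± 606 TPM. The 94 nuclear members summed to 22233 ± 840 TPM. The other 5 mitochondrial genes, mt-Co2, mt-Co3, mt-Atp6, mt-Atp8 and mt-Nd4l, averaged under 1 TPM. Reads mapping to several places were not counted, and the part of this loss in those levels was not tested.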

How the data were processed

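RNA of regulatory T cells was measured in 4 libraries. The authors deposited raw counts (read pairs assigned to each gene, not normalized), which featureCounts 1.4.6-p4 had made over GENCODE M13 exons after alignment with STAR, per the file headers. The headers record paired counting with both ends mapped and the reverse strand setting (2), and reads that map to several places or overlap several genes were not counted. The exon length of each gene, all annotated exons merged, was deposited in the same files, and the labels name the mm10 assembly. The read length and any trimming are not given in the sources used.

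Symbols, biotypes and principal transcripts came from GENCODE M21, which matched 50376 of 50600 gene identifiers. TPM was computed from the counts and exon lengths, over library totals of 32648138 to 94983494 counts, at which 3 counts equal 0.0316 to 0.0919 CPM. Pairs were compared on log2(TPM + 1) by an exact sign-flip permutation test. Variation between libraries was tested in edgeR 4.0.16 (R 4.3.3) with genes kept by filterByExpr (minimum count 10), scaling by TMM, a fit of the intercept alone, the trended dispersion and a goodness-of-fit test adjusted over 13478 genes, with DESeq2 1.42.0 size factors and dispersion trend and limma 3.58.1 as alternatives. No contrast between groups exists, since all libraries form 1 group. The edgeR step was tested on simulated data. Scripts used Python 3.11.15, pandas 2.3.3 and scipy 1.17.1. Promoter windows were matched by symbol to a RefSeq table on GRCm38.p6 (79 windows of 74 members, all on the chromosome and strand of the deposited gene, 67 within 100 bases of its start).

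Members given in full were those called by edgeR, those of an isoform pair, the highest and lowest expressed of each complex and of the assembly factors, Sdha to Sdhd and Cyc1, the 8 with the largest coefficient of variation at 5 CPM or more, those set apart by Dixon's criterion, and the X-linked ones. The naming rule uses no measured value, but it and the gene lists were set with earlier results of these data known. Alternatives were CPM, an effective length 200 bases shorter, a pseudocount of 0.1, other filters and dispersions, other complex assignments, the mean in place of the median and leaving out each library; the principal transcript length and limma were added after seeing the data.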

Additional observations from a re-analysis of the deposited data

Results flagged for a closer look

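Dixon's criterion, which sets a sample apart when its gap to the nearest other sample exceeds a set share of the range of the 4 samples, picked out 11 of the 96 values examined; chance picks out about 1 in 20 groups. Of these 5 were low values in replicate 2. Ndufa11 had 61.8 TPM there, Ndufa13 198.8 TPM, Ndufb9 307 TPM, Uqcr11 226 TPM and Cox4i1 611 TPM, each with the other 3 libraries higher and close together. In replicate 1, Cox5a at 263 TPM and Cox7a2l at 352 TPM were low, and Cox7c at 145 TPM, Ndufaf6 at 26.9 TPM and the summed level of the assembly factors at 316 TPM were high. That sum does not show a shift of the whole group. The median of the assembly factors was 35.3, 34.9, 35.8 and 35.4 TPM in replicates 1 to 4, and Ndufaf8 was at 76.4, 35.4, 56.8 and 49.4 TPM. Ndufaf5 at 31.3 TPM was high in replicate 4. None of the 10 genes that Dixon's criterion picked out was called by the edgeR test of variation between libraries.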

How the results depend on the processing

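The count of members called in edgeR was 1 and fell to 0 without a filter on low counts, with a filter at a mean of 1 CPM and in limma. It was 2 with a common dispersion (Cox7a1 and Ndufaf8) and 0 to 1 when a library was left out (0 without replicate 1, 2 or 3). The 51 calls among all genes became 931 with a common dispersion, 15 in limma and 17 to 56 when a library was left out (17 without replicate 1, 23 without replicate 3, 33 without replicate 4). Ndufaf8 was not called without a filter (edgeR adjusted p = 0.173) or at a mean of 1 CPM (0.0830), and had adjusted p-values of 0.0359 to 0.730 when a library was left out. The cause was not tested.

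The differences of complexes II, III, IV and V from complex I were 0.99, 1.28, 0.62 and 0.88 (log2) in CPM, and 0.99, 1.48, 0.55 and 0.80 with assembly factors counted in their complex. With principal transcript lengths they were 0.52, 0.91, 0.54 and 1.00. The effective length gave 0.49 in complex II, 1.28 in complex III and 0.40 in complex V, expressed members alone gave 0.86 in complex IV, and the mean in place of the median gave 0.77, 1.36, −1.29 and 0.81. Leaving out a library gave 0.64 to 0.69 in complex II, 1.12 to 1.18 in complex III, 0.20 to 0.23 in complex IV and 0.47 to 0.55 in complex V. Of 120 recomputed pair differences 116 had the direction first given. The exceptions were Cox7a2 minus Cox7a2l, at −0.27 in CPM, −0.040 without replicate 1 and −0.018 without replicate 4 (−0.040 to 0.054 over the libraries left out), and Atp5g2 minus Atp5g1, at −0.94 in CPM.

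No paired analysis was possible because the series has 1 group. The depth sets a floor for silent isoforms, and 4 libraries cannot give an exact sign-flip p below 0.13. The length used moves the levels of single genes as given above, and the effect of shared sequence was not tested.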
